A study of Mus musculus with 12 samples.

Results

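Open chromatin was examined over the Trem receptor genes and their signalling adaptor in mouse bone marrow-derived macrophages (BMDMs), primary macrophages grown from marrow cells. The members were 7 of 20661 autosomal protein-coding genes. Trem1, Trem3, Treml4, Treml2, Trem2 and Treml1 lie in 1 cluster on chromosome 17, and Tyrobp lies apart on chromosome 7. They were chosen by name, and every ATAC-seq peak that overlapped a gene body or the 20 kb on either side was taken. The 6 Trem windows join into chr17:48212713-48387176, and the Tyrobp window is chr7:30393782-30437582 (mm10). Overlapping peaks of the 12 libraries were merged, which gave 43 regions in these windows of 144562 on the autosomes, 34 at the Trem cluster and 9 at Tyrobp. Neighbouring windows overlap, so 15 regions fall in 2 members' windows and 5 fall in 3.

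The 8 groups were made up of 2 cohorts. In the first cohort, BMDMs labelled KO or WT were given oxLDL (oxidised low-density lipoprotein, 50 µg/ml for 48 h) or left untreated, with 1 library in each of the 4 groups, and the labels give neither the allele nor the ApoE status. In the ApoE KO cohort, KO cells carried Baf60af/f with Lyz2 Cre+ and WT cells carried Baf60af/f with Lyz2 Cre-, each given oxLDL or untreated, with 2 libraries in each of the 4 groups. All 8 libraries of that cohort, the WT ones included, are on an ApoE KO background. Baf60a (gene Smarcd1) belongs to SWI/SNF, a complex that moves nucleosomes, and the Lyz2 promoter drives Cre in myeloid cells, so deletion depends on Cre activity in each cell and the extent of deletion is not given in the labels. First-cohort libraries used the Omni-ATAC protocol. The ApoE KO cohort used cryopreserved cells and a Nextera kit, so background, preparation and peak caller cannot be told apart between cohorts.

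ATAC-seq cuts and tags accessible DNA with a transposase, and a peak is a stretch where cuts pile up. TREM receptors are short cell-surface proteins with 1 immunoglobulin-like domain, and most lack a signalling tail of their own. Trem1, Trem2 and Trem3 pair with Tyrobp (DAP12), whose immunoreceptor tyrosine-based activation motif recruits the kinase Syk. In macrophages Trem2 binds lipids and lipoproteins and is known for its part in the lipid-laden foam cells of atherosclerosis, whereas Trem1 amplifies inflammatory responses of neutrophils and monocytes. The Treml genes encode related receptors that mostly signal in other ways.

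The promoters of the cluster are shown first because the 4 that could be printed differ in whether the libraries called a peak over them. The RefSeq promoter table (GRCm38.p6, the assembly of mm10; 250 bases before to 50 after the start, plus strand, 5′ to 3′) held 4 of the 7 members. Capitals mark motif letters on either strand: the core AGGAAG of PU.1, the letters TGANTCA of AP-1, TTGCNNAA as bound by C/EBP factors, and the E-box CACGTG. No marked run overlaps another.
Trem1 (chr17:48232489-48232788): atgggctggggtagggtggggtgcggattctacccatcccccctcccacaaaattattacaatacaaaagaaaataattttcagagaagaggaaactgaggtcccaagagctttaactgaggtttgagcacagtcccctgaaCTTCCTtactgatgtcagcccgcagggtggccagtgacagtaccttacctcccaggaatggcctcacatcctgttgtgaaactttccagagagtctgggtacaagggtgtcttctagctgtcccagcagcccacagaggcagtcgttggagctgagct
Treml4 (chr17:48264045-48264344): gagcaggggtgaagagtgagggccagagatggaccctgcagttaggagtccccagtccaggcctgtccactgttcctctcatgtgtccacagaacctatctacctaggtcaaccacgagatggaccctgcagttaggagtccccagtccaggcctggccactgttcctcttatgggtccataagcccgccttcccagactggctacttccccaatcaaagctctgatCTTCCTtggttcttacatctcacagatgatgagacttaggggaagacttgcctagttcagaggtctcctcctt
Trem2 (chr17:48346151-48346450): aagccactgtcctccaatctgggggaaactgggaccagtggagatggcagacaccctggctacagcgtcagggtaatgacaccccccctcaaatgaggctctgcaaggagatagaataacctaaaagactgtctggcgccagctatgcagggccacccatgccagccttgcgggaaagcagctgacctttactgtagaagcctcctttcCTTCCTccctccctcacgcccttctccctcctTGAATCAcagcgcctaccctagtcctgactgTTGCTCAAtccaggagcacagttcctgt
Treml1 (chr17:48359666-48359965): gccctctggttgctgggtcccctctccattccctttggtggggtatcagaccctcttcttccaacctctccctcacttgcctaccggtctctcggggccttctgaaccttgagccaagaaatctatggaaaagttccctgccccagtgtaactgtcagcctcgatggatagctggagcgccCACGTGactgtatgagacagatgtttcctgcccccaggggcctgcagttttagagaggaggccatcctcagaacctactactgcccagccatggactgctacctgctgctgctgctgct
A peak overlapped the Trem2 promoter in 12 of 12 libraries, as in 27.5% of all 31365 promoters in that table. The Trem1 promoter had a peak in 4 of 4 first-cohort libraries and 0 of 8 ApoE KO libraries, as in 3.54% of all promoters. The Treml4 promoter had one in 6 libraries, 4 of the first cohort and 2 of the ApoE KO cohort. The Treml1 promoter had none in 12 libraries, as in 51.7% of promoters. The Trem2 sequence held AGGAAG (minus strand, bases 210 to 215), TGANTCA (bases 242 to 248) and TTGCNNAA (bases 273 to 280). Trem1 and Treml4 each held AGGAAG on the minus strand, at bases 143 to 148 and 228 to 233, and Treml1 held CACGTG at bases 182 to 187. These letters are common: AGGAAG occurred in 35.1% of all promoters, TTGCNNAA in 10.9%, TGANTCA in 7.85% and CACGTG in 7.14%.

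The first-cohort lists held 82177 to 141441 peaks and the ApoE KO lists 24397 to 44524, and the read depth behind them is unknown. Longer lists reach weaker peaks, so tests used lists shortened to the strongest peaks of equal number within a cohort, or ranks among the 17343 regions that all 12 libraries called. A peak summit or centre within 1 kb of either end of the gene (a boundary peak) was present for Smarcd1, Lyz2 and Apoe in 12 of 12 libraries. Which exons were deleted is not stated, so such peaks check no genotype. Of 10 macrophage marker genes, a mean of 97.5% had a boundary peak in first-cohort lists of equal length and 87.5% in ApoE KO ones, against 58.3% and 43.6% of all genes. Neutrophil markers had 30% and 17.5%, megakaryocyte and platelet markers 30% and 20%, B cell markers 31.2% and 0.0%, T and NK cell markers 37.5% and 26.6%, and dendritic cell markers 59.4% and 18.8%. The 10 megakaryocyte and platelet markers include the member Treml1, which had no boundary peak in either cohort. The neutrophil genes Ly6g, Cxcr2, Elane, Mpo, Ltf and Retnlg had none in any full list. By contrast, S100a8 and Camp had one in full lists of both cohorts, and S100a9 and Ngp in full lists of the first cohort only. The full-list share of the 10 neutrophil markers averaged 32.5% in the first cohort, all from these genes. In the ApoE KO cohort it averaged 18.8%, all from S100a8 and Camp. The labels do not say whether replicate libraries had different donors or dishes, so the spread behind each p-value may be technical. A lower peak in such bulk samples can mean fewer cells with the site open or less opening per cell, and these cannot be told apart.

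Across the Trem cluster, the regions that every library shared sat at the Trem2 start, between Trem2 and Treml1, and between Treml4 and Treml2. The last of these lay 59.9 kb below the Trem2 start. The Trem1 end was called mainly in the first cohort. Of the 43 regions, 6 (14.0%) were called in all 12 libraries, beside 12% of all autosomal regions and 13.1% of regions within 20 kb of a protein-coding gene. Of these 6, 3 lay among the 34 Trem regions and 3 among the 9 Tyrobp regions. Another 10 of the 43 (23.3%) had a peak in the 4 first-cohort libraries and in none of the 8 ApoE KO ones, beside 15.7% of all regions and 16.3% of those near genes. They were the Trem1 start region, 2 regions inside Trem1, 1 inside Treml4, 3 at Treml2, 1 just beyond the end of Trem2, and 2 between Nfkbid and Aplp1. The opposite pattern, all 8 ApoE KO libraries and no first-cohort one, occurred in 0 of 43, beside 0.0387% of all regions and 0.0406% of those near genes. A single library accounted for 5 of the 43, beside 25.5% of all regions and 24.3% of those near genes. First-cohort peaks covered 9.72% and 12.1% of the Trem windows in the oxLDL and untreated KO libraries, and 8.11% and 9.55% in the oxLDL and untreated WT libraries. In the ApoE KO cohort they covered 2.49 ± 0.693% in oxLDL KO and 1.55 ± 0.17% in oxLDL WT libraries (SD, n = 2 each), and 3.23 ± 1.8% in untreated KO and 1.82 ± 0.792% in untreated WT libraries (SD, n = 2 each). List length moved with these shares.

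**Figure D1:**
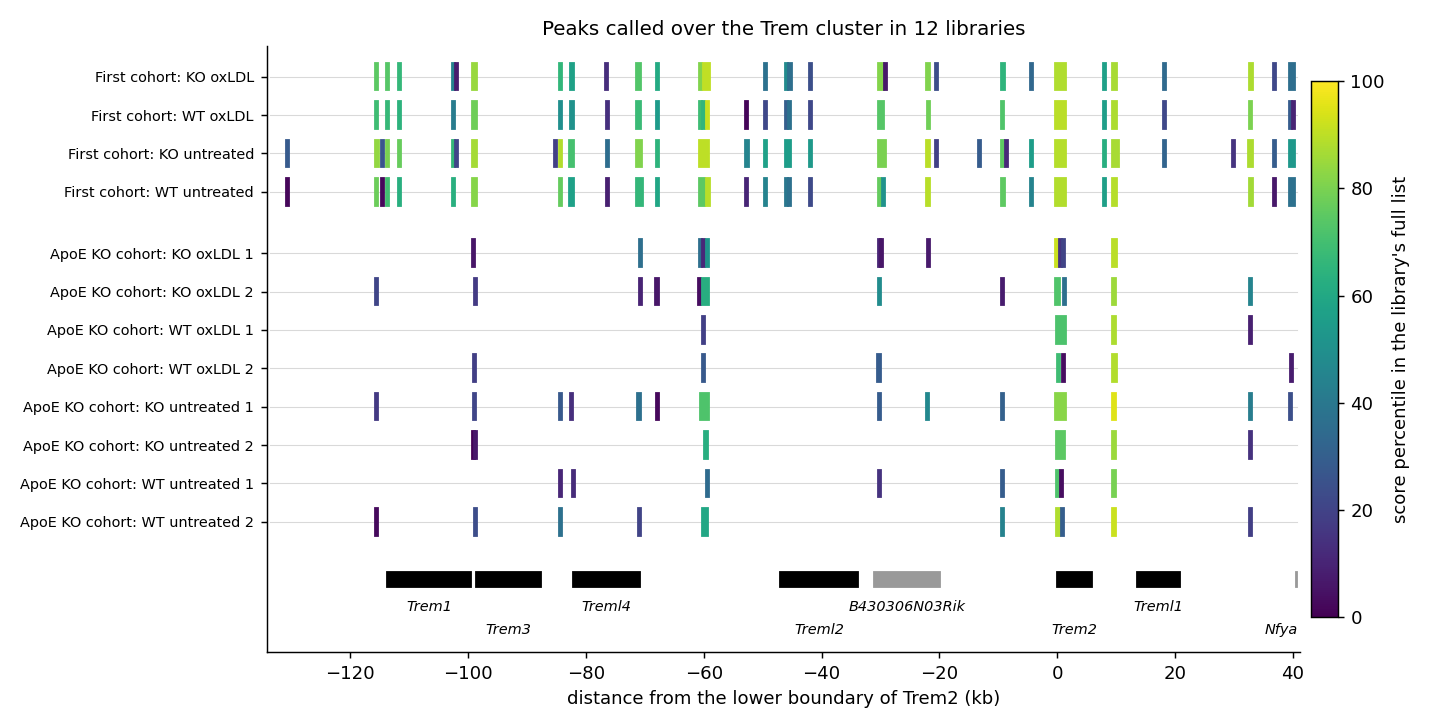
Peaks of the 12 libraries over the joined Trem windows, by distance from the lower boundary of Trem2 (kb), 1 row per library, coloured by the peak's score percentile in its library's full list (narrow peaks are widened to stay visible), with member genes in black and other protein-coding genes in grey. Columns of peaks that run through all 12 rows stand at Trem2, about 10 kb beyond its start and between Treml4 and Treml2, and peaks near Trem1 are dense in the first cohort and sparse in the ApoE KO cohort.

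Trem2, the lipid-sensing receptor of the family, had a called region over its start in every library (chr17:48346029-48347969, overlapping the 5′ part of the gene). In the ApoE KO cohort the summit of the highest peak lay 59 bp before to 58 bp after the gene's lower boundary in all 8 libraries. Its total peak width in that cohort was 1443 and 1410 bp in oxLDL KO, 1751 and 655 bp in oxLDL WT, 1775 and 1498 bp in untreated KO and 511 and 1155 bp in untreated WT libraries. First-cohort widths were 1888 and 1941 bp in the oxLDL and untreated KO libraries and 1876 and 1915 bp in the oxLDL and untreated WT libraries. All 4 first-cohort peaks were wider in bp than the widest ApoE KO peak, and within each cohort the genotypes overlapped. On the log2 scale, centred on each library's median, first-cohort widths were 0.666 to 0.902. The ApoE KO ones were -0.14 to 1.64, so the cohorts overlapped on that scale.

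The score of the Trem2 start region was ranked among the shared regions of each library, so that a percentile of 50 is the middle of that set. Within the ApoE KO cohort, oxLDL KO libraries had percentiles of 83.2 and 47.8 against 55.7 and 56.8 in oxLDL WT libraries. Untreated KO libraries had 55.0 and 53 against 54.2 and 72.7 in untreated WT libraries. Of the first-cohort libraries, oxLDL KO had 45.7 against 55.8 in oxLDL WT, and untreated KO had 40.2 against 44.2 in untreated WT. The 4 KO and 4 WT libraries of the ApoE KO cohort overlapped, with means of 59.8 ± 15.9 and 59.9 ± 8.63 (SD, n = 4 each). The fitted difference between KO and WT over all libraries was -2.43 percentile points (SE 6.98, limma adjusted p = 0.901), and that between oxLDL and untreated was 4.33 points (SE 6.98, limma adjusted p = 0.887).

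A region between Trem2 and Treml1 (chr17:48355644-48356818), 9.83 kb above the Trem2 start, ranked higher in full lists than the Trem2 start region in every ApoE KO library except oxLDL KO replicate 1. In full lists there it ranked between the 79.5th and the 95.2nd percentile of peaks, and the authors' fold enrichment there was 4.81 to 9.52. Among shared regions its percentile was 78.7 and 71.2 in oxLDL KO against 80.4 and 83.6 in oxLDL WT libraries, and 87.6 and 71.1 in untreated KO against 66.0 and 82.0 in untreated WT libraries. In the first cohort it was 42.7 and 49.7 in the oxLDL KO and WT libraries, and 33.5 and 44.7 in the untreated KO and WT libraries. Every ApoE KO library therefore lay above every first-cohort library, as for 17.5% of shared regions. KO and WT overlapped within the ApoE KO cohort, and the fitted difference between KO and WT was -3.62 points (SE 5.37, limma adjusted p = 0.781).

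The third region shared by all libraries lay in the gap between Treml4 and Treml2 (chr17:48285610-48287464), with its centre 10930 bp from the nearest boundary of Treml4. Here KO libraries lay above WT libraries within each treatment of the ApoE KO cohort, while the lowest KO library (oxLDL) lay just under the highest WT library (untreated). The percentiles were 19 and 32.7 in oxLDL KO against 4.06 and 11.6 in oxLDL WT libraries, and 31.7 and 33.1 in untreated KO against 10.7 and 19.5 in untreated WT libraries. The means were 29.1 ± 6.78 in KO and 11.5 ± 6.32 in WT libraries (SD, n = 4 each), and the groups did not overlap at either treatment, a pattern held by 6.85% of shared regions. The first cohort had the other order, with 55.9 in KO against 64.3 in WT after oxLDL and 46.1 against 47.2 untreated. Over both cohorts the difference between KO and WT was 10.2 points (SE 6.61, limma adjusted p = 0.477), and in the ApoE KO cohort alone it was 17.8 points (SE 6.36, limma adjusted p = 0.199), so it did not pass in either. Both untreated WT libraries of that cohort carry the file mark L001 and neither untreated KO library does. The part of that mark in this difference was not tested. Every ApoE KO library lay below every first-cohort library, as for 14.7% of shared regions.

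**Figure D2:**
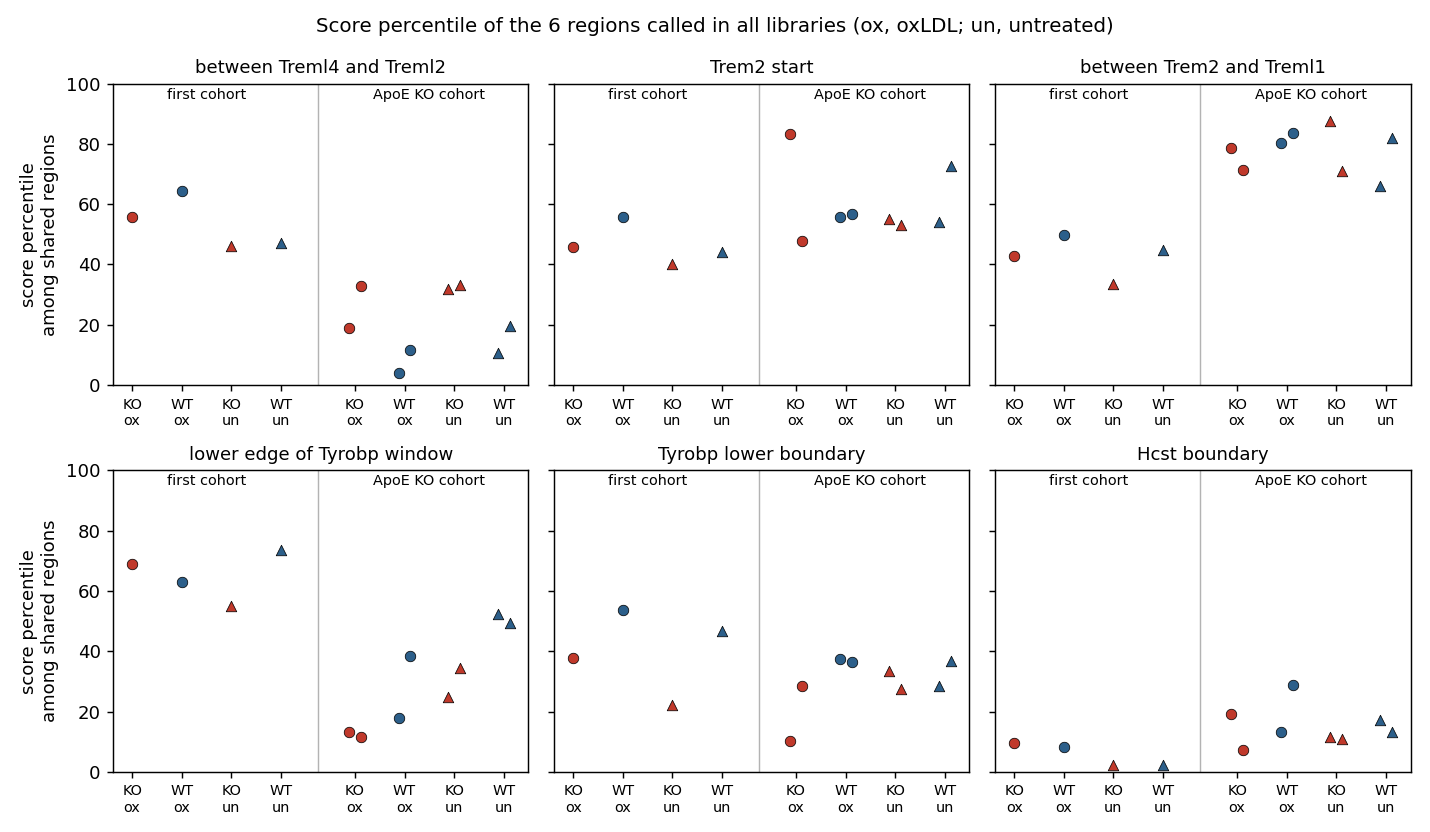
Score percentile of each region among the 17343 regions called in all libraries (vertical axis), 1 panel per region and 1 point per library, with KO in red and WT in blue, oxLDL as circles and untreated as triangles, first cohort left of the line and ApoE KO cohort right of it. The region between Treml4 and Treml2 has KO points of 19 to 33.1 and WT points of 4.06 to 19.5 in the ApoE KO cohort, and the region at the lower edge of the Tyrobp window has its highest ApoE KO points, 52.4 and 49.5, in untreated WT.

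Trem1, the receptor that amplifies inflammatory responses, had a region at its start (chr17:48232504-48232892) with full-list percentiles of 73.6 and 79.9 in oxLDL and untreated KO and 67.1 and 69.8 in oxLDL and untreated WT libraries of the first cohort. No ApoE KO library called it. The region between the end of Trem1 and the start of Trem3 (chr17:48246993-48247955) gave both genes a boundary peak in 10 of 12 libraries. All 4 KO but 2 of 4 WT libraries of the ApoE KO cohort called it, with full-list percentiles of 5.61 and 17.4 in oxLDL KO, 18.6 in 1 oxLDL WT, 20.6 and 6.3 in untreated KO and 23.2 in 1 untreated WT library. All 6 ApoE KO peaks there thus ranked at or below the 23.2nd percentile of their lists. These counts come from full lists of unequal length. Of the 6 peaks, only that of oxLDL WT replicate 2, the library with the shortest list, remained in lists of equal length. Trem3, an activating Tyrobp-coupled receptor of mice, had no region centred inside it.

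Treml4, a receptor for dead cells on myeloid cells, had called regions over its start and its end. The region over its start (chr17:48263589-48264390) was called in 4 of 4 first-cohort libraries, and in the ApoE KO cohort in 0 of 4 oxLDL against 2 of 4 untreated libraries, 1 KO and 1 WT. A region 2104 bp from the Treml4 boundary (chr17:48261800-48262393) was called likewise, in 4 first-cohort libraries and in 0 of 4 oxLDL against 3 of 4 untreated ApoE KO libraries. That region ranked at the 66.0th and 49.6th full-list percentile in oxLDL KO and WT libraries of the first cohort, against the 88.6th and 76.4th in its untreated KO and WT libraries. It lay outside the rule for condition-specific regions and was picked out after its values were seen. In lists of equal length, none of the ApoE KO peaks of this region or of the Treml4 start region remained. The region at the Treml4 end (chr17:48274920-48276031) had a peak in 3 KO libraries and 1 WT library of the ApoE KO cohort in full lists. Only the peak of oxLDL KO replicate 1 remained in lists of equal length.

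Treml2, a receptor of myeloid cells and B cells, and Treml1, a receptor of platelets and megakaryocytes, had no boundary peak in any of the 12 libraries. The 3 regions at Treml2 that were called in every first-cohort library had full-list percentiles of 21.7 to 56.7 there. Inside Treml1 a single region was called, in 3 first-cohort libraries, at the 21.7th to 34.2nd percentile. Between Treml2 and Trem2, the Trem family gene B430306N03Rik held a region (chr17:48315912-48317454) with a peak in 3 KO and 2 WT libraries of the ApoE KO cohort. Another region of that gene (chr17:48324068-48324784) had one in 2 KO and 0 WT libraries of that cohort. Both counts come from full lists of unequal length. In lists of equal length, the former kept its peak in oxLDL KO replicate 2 and oxLDL WT replicate 2 of that cohort. The latter kept its peak in untreated KO replicate 1 alone.

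Tyrobp, the adaptor through which Trem1, Trem2 and Trem3 signal, had 3 regions that all 12 libraries called, and a larger share of its window was covered than of the Trem windows in every library. Peaks covered 15.9% and 17.2% of it in oxLDL and untreated KO and 14.6% and 16.2% in oxLDL and untreated WT libraries of the first cohort, and 4.47% to 11.3% in the ApoE KO cohort. The region over its lower boundary (chr7:30412415-30414137, which also overlaps the long non-coding RNA gene Gm32029) had ApoE KO summits at positions -980 to -748 bp from that boundary. Its percentiles among shared regions were 10.3 and 28.5 in oxLDL KO against 37.5 and 36.5 in oxLDL WT libraries, and 33.4 and 27.6 in untreated KO against 28.6 and 36.9 in untreated WT (all ApoE KO cohort). First-cohort values were 37.6 in KO against 53.7 in WT after oxLDL, and 22.0 against 46.7 untreated. KO values lay below WT values in both first-cohort pairs and in the oxLDL libraries of the ApoE KO cohort, and overlapped them in its untreated libraries. The fitted difference was -13.4 points (SE 6.42, limma unadjusted p = 0.0486, adjusted p = 0.326), which did not pass. In the same limma contrast, 15.2% of shared regions had an unadjusted p under 0.05. How many shared regions had this order of libraries was not counted.

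The outermost region of the Tyrobp window (chr7:30392655-30395159) lies 19875 bp below Tyrobp at the long non-coding RNA gene Gm42376, and reaches past the window's edge. The ApoE KO percentiles were 13.2 and 11.6 in oxLDL KO against 17.8 and 38.4 in oxLDL WT libraries, and 24.9 and 34.3 in untreated KO against 52.4 and 49.5 in untreated WT libraries. KO lay below WT without overlap at both treatments, as for 6.68% of shared regions, and oxLDL lay below untreated without overlap in both genotypes, as for 3.72%. None of the 6 shared regions had oxLDL above untreated without overlap in both genotypes, as 4.69% did. The first cohort gave KO above WT after oxLDL, 68.8 against 62.9, and KO below WT untreated, 54.9 against 73.6. The fitted difference was -14.5 points between KO and WT (SE 6.99, limma adjusted p = 0.332) and -12.8 points between oxLDL and untreated (SE 6.99, limma adjusted p = 0.571). In the ApoE KO cohort alone the oxLDL difference was -20.2 points (SE 7.68, limma adjusted p = 0.449). Both untreated WT libraries of that cohort carry the file mark L001, as does 1 oxLDL KO library, and without those 3 the differences were -8.2 and -6.53 points. The part of that mark in the result was not tested.

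The region at the upper boundary of Hcst, which encodes the adaptor DAP10 that recruits phosphatidylinositol 3-kinase (chr7:30419467-30420644), was among the weaker shared regions. Its percentiles ran from 7.39 to 19.2 in the 4 KO and from 13.2 to 28.7 in the 4 WT libraries of the ApoE KO cohort, and from 2.35 to 9.47 in KO and 2.32 to 8.27 in WT libraries of the first cohort. The fitted difference between KO and WT was -3.65 points (SE 4.32, limma adjusted p = 0.721). The region at Nfkbid, an IκB protein of the nucleus (chr7:30421509-30422866), was called in 11 libraries and missed in oxLDL WT replicate 2 of the ApoE KO cohort, the library with the shortest list.

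**Figure D3:**
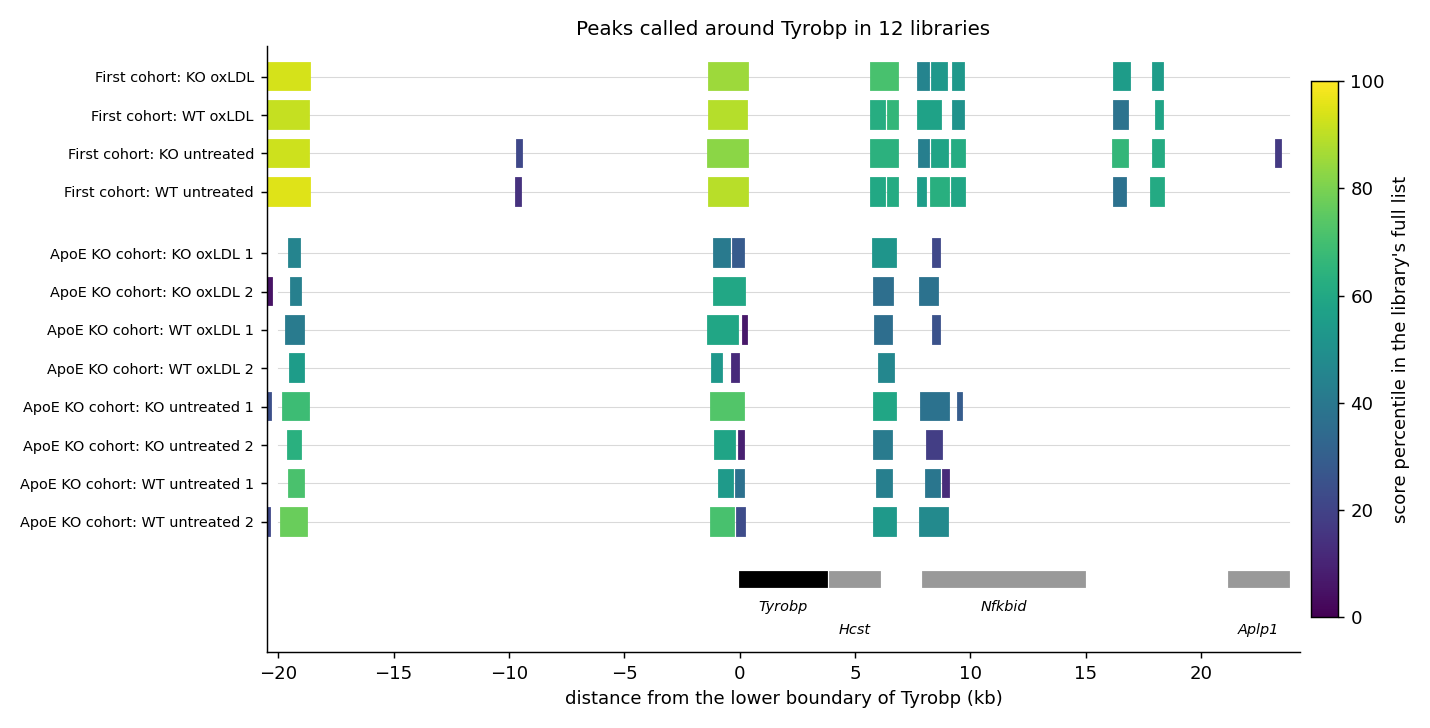
Peaks of the 12 libraries over the Tyrobp window, by distance from the lower boundary of Tyrobp (kb), drawn as for the Trem cluster, with Tyrobp in black and neighbouring protein-coding genes in grey. Regions at the left edge, at the Tyrobp boundary and at Hcst run through all 12 rows, and the 2 regions between Nfkbid and Aplp1 appear in the 4 first-cohort rows and in none of the 8 ApoE KO rows.

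No region of either window separated the conditions by its calls. With a region counted where at least 5 of 6 libraries of 1 condition and at most 1 of 6 of the other called it, 0 of 43 were called in KO over WT (0.038% of all regions and 0.0372% of those near genes) and 0 of 43 in WT over KO (0.00138% and 0.00173%). For treatment, 0 of 43 were called in oxLDL over untreated (0.0% and 0.0%) and 0 of 43 in untreated over oxLDL (0.0401% and 0.0337%). The region 2104 bp from the Treml4 boundary came nearest, with 2 of 6 oxLDL and 5 of 6 untreated libraries, and it met the count in untreated cells when either first-cohort oxLDL library was left out. That made 1 of 43, beside 0.84% of all regions without the oxLDL KO library and 0.827% without the oxLDL WT library.

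The number of peaks in a gene's window, in lists of equal length, also did not separate the conditions for any of the 7 genes, all of which passed the filter of a mean of at least 1 peak. Between KO and WT, 0 of 7 passed limma at an adjusted p of 0.05 (0.0% of 15309 genes did, and 6.75% had an unadjusted p under 0.05). Tyrobp was the 1 member with an unadjusted p under 0.05. Its window held 3 and 4 peaks in oxLDL KO against 4 and 4 in oxLDL WT libraries, and 3 and 3 in untreated KO against 5 and 4 in untreated WT (all ApoE KO cohort). The first-cohort windows held 8 in KO and 8 in WT after oxLDL, and 8 and 9 untreated. The means in the ApoE KO cohort were 3.25 ± 0.5 in KO and 4.25 ± 0.5 in WT (SD, n = 4 each), and 1 KO library equalled 3 of the WT libraries. A region called in pieces counts as more than 1 peak, so these are not numbers of separate regions. The Tyrobp boundary region counted as 2 peaks in untreated WT replicate 1 and in oxLDL WT replicate 2 of that cohort. In untreated KO replicate 1 it was 1 peak of 1460 bp. The fitted difference was -0.26 on the log2(peaks + 0.5) scale (SE 0.0856, limma unadjusted p = 0.0178, adjusted p = 0.712). It was -0.73 with peaks of a score of at least 50 (SE 0.358, limma adjusted p = 0.691) and -0.04 in full lists (SE 0.0942, limma adjusted p = 0.853). Trem2 windows in the same cohort held 2 or 3 peaks in each library, with a difference of -0.12 (SE 0.122, limma adjusted p = 0.726). The remaining 5 lay between -0.26 for Trem1 and 0.19 for Treml2, beside a median of -0.0241 over all genes tested.

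Between oxLDL and untreated, 0 of 7 passed (limma, 0.00653% of genes did) and none had an unadjusted p under 0.05, beside 5.57% of genes. The estimates were 0.55 for Trem3, 0.41 for Treml4, 0.38 for Treml1, 0.35 for Treml2, 0.26 for Trem1, 0.04 for Trem2 and -0.01 for Tyrobp, beside a median of 0.0 over all genes. The counts behind them are small. Trem1 windows held 0 peaks in 3 oxLDL libraries and 1 in the other, against 0 in all 4 untreated libraries of the ApoE KO cohort. Treml1 windows held 2 and 4 peaks in oxLDL KO and 2 and 4 in oxLDL WT libraries, against 2 in each of the 4 untreated libraries. Each window with 4 peaks counted the Trem2 start region as 2 of them. With the authors' lists at full length, the median over all genes was -0.243 and the estimates for Trem1, Trem3 and Treml4 were -0.98, -0.8 and -0.28, so the direction of these 3 turned with the scaling, as did that of Trem2 (-0.06). The difference between KO and WT turned likewise for Trem1, Trem3 and Trem2, to 0.52, 0.8 and 0.14 beside a median of 0.178. No member passed the interaction of genotype and treatment (limma, 0.0% of 15309 genes did, and 3.3% had an unadjusted p under 0.05).

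**Figure D4:**
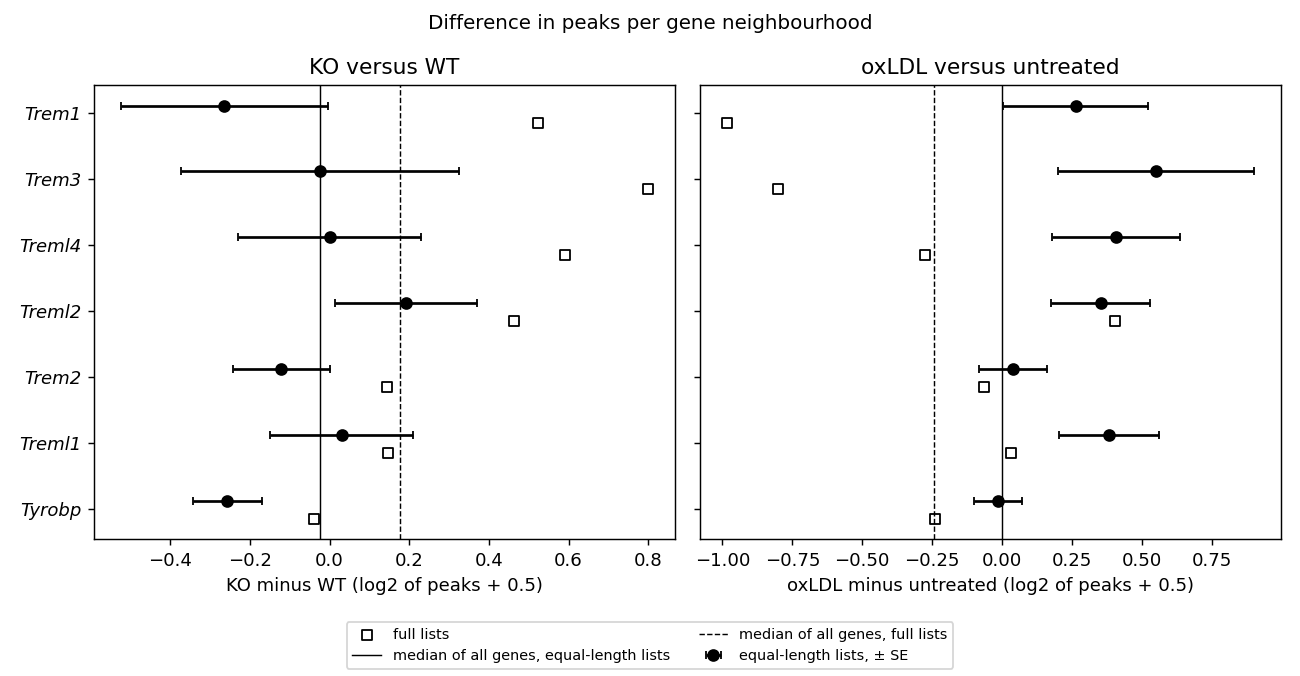
Difference in log2(peaks + 0.5) per gene window, KO minus WT on the left and oxLDL minus untreated on the right, for the 7 genes in equal-length lists (filled circles, bars are the SE of the limma fit) and in full lists (open squares), with the median of all genes as a solid or dashed line. Tyrobp has the shortest bar and lies at -0.26 on the left, and the squares of Trem1, Trem3 and Treml4 lie on the other side of 0 from their circles on the right.

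Among the 6 shared regions, the score percentile passed for 0 of 6 between KO and WT (limma, 0.0404% of 17343 regions passed and 15.2% had an unadjusted p under 0.05) and for 0 of 6 between oxLDL and untreated (0.00577% and 9.37%). It passed for 0 of 6 in the interaction of genotype and treatment (0.0% and 4.26%). Peak width, centred on each library's median, passed for 0 of 6 between KO and WT (limma, 0.0%, with 6.85% at an unadjusted p under 0.05) and for 0 of 6 between oxLDL and untreated (0.0% and 7.78%), and for 0 of 6 in the interaction (0.0% and 3.84%). The widest spread was between Treml4 and Treml2, where peaks covered 501 and 1366 bp in oxLDL KO against 408 and 455 bp in oxLDL WT libraries, and 1570 and 679 bp in untreated KO against 282 and 978 bp in untreated WT, all of the ApoE KO cohort.

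The genes that act with TREM receptors gave the same picture in lists of equal length. Of 24 genes tested for Tyrobp signalling, the kinases, adaptors and phosphatases around Syk, 0 passed in either contrast (limma, all 12 libraries). In the ApoE KO cohort alone 1 passed in each contrast. There 493 and 449 of all genes passed, of which 455 and 430 had tied counts and no residual spread. Between KO and WT, 7 lay above 0 and 16 below, where 36.8% of all genes lay above and 53.1% below, with a median of -0.043 beside -0.0241 for all genes. Grb2, an adaptor that links receptors to Ras, had the lowest adjusted p, with a mean of 6.25 peaks in KO and 7.75 in WT libraries of the ApoE KO cohort and a difference of -0.26 (SE 0.0518, limma adjusted p = 0.53). Hcst shares its window with Tyrobp and gave -0.33 (SE 0.113, limma adjusted p = 0.712). Syk itself gave -0.04 (SE 0.119, limma adjusted p = 0.986). Of 14 other Tyrobp-coupled receptors, 10 were tested and 0 passed, with medians of -0.00167 between KO and WT and -0.0784 between oxLDL and untreated. Of 9 ligand and shedding genes of Trem2, 0 passed, and Apoe gave -0.36 between KO and WT (SE 0.267, limma adjusted p = 0.724).

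Lipid-associated macrophage genes, which accompany Trem2 in lipid-loaded macrophages, had mostly more peaks after oxLDL in equal-length lists and mostly fewer in full lists. None passed in the fit of all 12 libraries. Of 17 genes tested, 16 lay above 0 and 1 below between oxLDL and untreated, where 45.9% of all genes lay above and 45.5% below, with a median of 0.239 beside 0.0 for all genes. None of them passed (limma, lowest adjusted p = 0.671), and 5 of 17 had an unadjusted p under 0.05, beside 5.57% of all genes. Those were Lipa, the lysosomal acid lipase, at 0.71 (SE 0.177), the cathepsins Ctsl at 0.40 (SE 0.0895) and Ctsb at 0.24 (SE 0.102), the cystatin Cst7 at 0.95 (SE 0.328) and the secreted glycoprotein Spp1 at 0.25 (SE 0.0848). Lipa windows averaged 5.75 peaks in oxLDL and 3.75 in untreated libraries of the ApoE KO cohort, and Cst7 windows 1.0 and 0.0. With peaks of a score of at least 50, 11 genes lay above 0 and 6 below (median 0.0965), beside 44.5% and 44.2% of all genes. With 50 kb on each side it was 13 and 5 (median 0.0583), beside 47.5% and 48.9%. Without the L001 libraries it was 15 and 1 (median 0.249), beside 49.9% and 44.1%. In the ApoE KO cohort alone it was 12 and 3 (median 0.145), beside 33.0% and 36.9%. There 1 of these genes passed limma, as did 449 of all genes, of which 430 had tied counts and no residual spread. Lists at full length put 14 of 18 below 0, beside 89.2% of all genes, with a median of -0.159 beside -0.243 for all genes.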

How the data were processed

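Each of the 12 BMDM libraries had its own ATAC-seq peak list. Bowtie2 2.3.4.1, mm10, SAMtools 1.2, bedtools 2.28.0, Picard, cutadapt, Trim Galore and FastQC are named for both cohorts, MACS3 for the first and MACS2 for the ApoE KO cohort, per the submitters' processing notes. Caller settings, and any shift of reads for the transposase, were not given in the sources used here, and both set where a peak's edges fall. Each peak has a whole-number score deposited by the authors. The ApoE KO lists also hold the authors' fold enrichment ratio, deposited -log10 p-values and q-values, not used here, and a summit. In the first cohort, the centre of a peak stands in for the summit. Lists without reads leave the depth unknown, so values carry no counting interval.

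Peaks on the 19 autosomes that shared at least 1 bp were joined into regions. Genes came from RefSeq GRCm38.p6. A percentile ranks the highest peak score of a region. Equal-length lists held the 82177 (first cohort) or 24397 (ApoE KO cohort) peaks with the highest score. Limma 3.58.1 (R 4.3.3) was fitted to all 12 libraries, with groups of genotype and treatment and cohort as terms, two-sided, with Benjamini-Hochberg adjustment over all 15309 genes (log2(peaks + 0.5), mean of at least 1 peak) or all 17343 shared regions. On simulated data, the fits recovered most changes put into percentiles and widths, and a minority of those put into peaks per gene. The changes put in were larger than any member difference reported here, so the recovery does not show what the fits find at those smaller sizes. Python 3.11.15 did the rest. The rule for names took all 7 genes, regions called in all 12 libraries, and regions that separated conditions or cohorts. Regions that gave a gene its boundary peak or its lowest counts are also described. The members and lists were chosen with earlier results of these data known. Alternatives were other windows, pseudocounts, filters, scales, list lengths, a replicate block and fewer libraries.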

Additional observations from a re-analysis of the deposited data

How the results depend on the processing

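No member passed in any of the 532 values recomputed under the alternatives. Of these, 443 kept their sign, 59 changed sign and 9 became 0. The other 21 belong to Treml4 between KO and WT, whose estimate of 0.0 has no direction and ranged from -0.21 to 0.59. In the full lists, peaks per gene between KO and WT became 0.52 for Trem1, 0.14 for Trem2 and 0.8 for Trem3, and between oxLDL and untreated -0.98 for Trem1, -0.0645 for Trem2, -0.8 for Trem3 and -0.28 for Treml4. With 5 kb on each side, KO against WT became 0.0604 for Trem2 and -0.0483 for Treml2. With 50 kb it became 0.0179 for Trem1, 0.0407 for Trem3 and -0.0638 for Treml1. With peaks of a score of at least 50, KO against WT became 0.0402 for Trem2, and oxLDL against untreated -0.41 for Treml2 and -0.44 for Treml4, while the region between Treml4 and Treml2 was no longer shared. Without the 3 L001 libraries, KO against WT became 0.062 for Trem2 and oxLDL against untreated 0.0736 for Tyrobp, and the oxLDL percentile difference between Treml4 and Treml2 became 1.36. In the ApoE KO cohort alone, oxLDL against untreated became 0.0183 for Tyrobp and -3.55 points at its boundary region. Over all genes, the peak fit called 0 between KO and WT and 1 between oxLDL and untreated. In the ApoE KO cohort alone it called 493 and 449, of which 455 and 430 had tied counts and no residual spread, without the L001 libraries 231 and 235, and with 1 library left out 0 to 121 and 0 to 101. Calls of shared regions between KO and WT went from 7 to 103 on the log2 score, 50 on the logit scale, 16 with a score of at least 50, 1 for percentiles in the full list, 0 in the ApoE KO cohort alone or without the L001 libraries, and 1 to 146 with 1 library left out. Percentiles in the full list turned KO against WT to 3.18, 0.78 and 2.95 points at the Trem2 start, Trem2-Treml1 and Hcst regions, and oxLDL against untreated to -2.06, -0.25, -6.86 and -2.35 at the Trem2 start, Trem2-Treml1, Tyrobp boundary and Hcst regions. The Tyrobp boundary region became -0.0487 on the log2 score and -6.7e-04 on the logit scale for oxLDL.

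Leaving out each library in turn, KO against WT ranged from -0.27 to 0.21 for Trem3, -0.0806 to 0.16 for Treml1 and -7.72 to 1.72 points at the Trem2 start. The oxLDL difference ranged from -0.0299 to 0.12 for Trem2, -0.0592 to 0.0375 for Tyrobp, and, in points, -5.32 to 2.98 between Treml4 and Treml2, -0.97 to 8.47 at the Trem2 start and -2.65 to 4.62 at the Tyrobp boundary. Regions that separated oxLDL from untreated by calls ranged from 0 to 1, the region near Treml4 named above, when all regions called in untreated cells reached 1215 and 1196 of 144562, against 58 with every library. The causes were not tested.

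Replicate numbers did not pair the libraries: deviations of same-numbered libraries correlated at -0.138 to 0.0815 over 6 pairs of groups per measure. The replicate block changed no member's call, and calls over all features became 0 genes for oxLDL and 3 regions for KO against WT. The missing read depth and the single first-cohort libraries limit what a difference near the calling limit can show.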

Other observations

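The shared regions whose percentile moved most like that of the Trem2 start region, by Pearson's r over the 12 libraries after each cohort's mean was subtracted, were at Acp2 and Nr1h3 (r = 0.931, Spearman's rho = 0.769), Rpl23a (r = 0.906, rho = 0.72) and Ap2m1 (r = 0.895, rho = 0.853). Nr1h3 encodes LXRα, a receptor for oxidised cholesterol. They were the 3 highest of 7809 gene-boundary regions, of which the 99th percentile of r was 0.704. For the Tyrobp boundary region they were at Tmem50b (r = 0.958, rho = 0.881), Phf13 (r = 0.954, rho = 0.776) and Psmd3 (r = 0.944, rho = 0.888), where the 99th percentile was 0.818. The points share libraries, list length and preparation, so these are descriptions with no test.

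Of the 43 regions, 5 (11.6%) were called in a single library, beside 25.5% of all regions, and all 5 in untreated KO of the first cohort, the library with the longest list.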
